A study of Mus musculus with 9 samples.

Results

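Klra7, Klrd1, Klrk1, Klrc1 and Klrg1 encode lectin-like receptors that were first described on natural killer (NK) cells and that some T cells also carry. These 5 genes, among 39017 gene IDs in the deposited count table, were chosen by symbol with the comparison of the genotypes already known, so their differences between genotypes are given below as a description with no test. RNA came from lymph node CD4+ T cells of male C57BL/6 mice, and all 9 samples carried a floxed allele of Kdm6a, the X-linked gene of a histone H3 lysine 27 demethylase, over the Y chromosome. CD4-Cre was absent from the 5 WT samples (WT 1, 3, 4, 5 and 9) and present as 1 copy in the 4 cKO samples (cKO 2, 6, 7 and 8), so Cre and the deletion cannot be told apart in this design. CD4-Cre acts in T cell precursors before the CD4 and CD8 lineages separate, and it therefore also deletes in CD8 T cells. The labels give no stimulation, but the deposited count table has "stim" in its name, so whether the cells were stimulated is not settled here. Nor do the labels give the age or say whether each sample was a separate mouse, so the p-values reflect only how these samples spread, some of which may be technical.

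Lectin-like receptors of this group read the surface of other cells. CD94, the product of Klrd1, pairs with NKG2A, the product of Klrc1, and the pair delivers an inhibitory signal when it meets Qa-1 (H2-T23), an MHC class I molecule that presents leader peptides. Klrk1 encodes NKG2D, an activating receptor for stress-induced ligands that signals through the adaptors DAP10 (Hcst) and DAP12 (Tyrobp). Klra7 encodes Ly49G, an inhibitory receptor for classical MHC class I and a member of the large Ly49 family of mice, and Klrg1 encodes an inhibitory receptor for cadherins that marks terminally differentiated effector T cells and some regulatory T cells.

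The relatives of Klra7 and Klrc1 resemble them closely, which bears on how their reads could be assigned, and the first 60 coding bases are shown for that reason. Letters come from the GENCODE M21 transcripts on the minus strand of chromosome 6 of mm10, and capitals mark bases that differ from Klra7 in the Ly49 genes and from Klrc1 in Klrc2.
Klra7: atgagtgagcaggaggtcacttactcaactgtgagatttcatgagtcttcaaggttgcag
Klra6: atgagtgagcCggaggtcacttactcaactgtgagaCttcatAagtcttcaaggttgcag
Klra1: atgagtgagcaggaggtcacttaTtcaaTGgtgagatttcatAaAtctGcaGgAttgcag
Klrc1: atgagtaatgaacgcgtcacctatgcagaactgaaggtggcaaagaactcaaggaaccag
Klrc2: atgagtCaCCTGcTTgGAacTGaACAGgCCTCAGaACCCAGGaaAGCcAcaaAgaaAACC
The Klra7 stretch lies at chr6:130231558-130231617, that of Klra6 at chr6:130025160-130025219 and that of Klra1 at chr6:130380603-130380662. The Klrc1 stretch lies at chr6:129678851-129678910 and that of Klrc2 at chr6:129660497-129660556. Klra6 differed from Klra7 at 3 of the 60 bases and Klra1 at 8. Over the whole coding sequence, identity to Klra7 was 78.8% for Klra6 and 82.4% for Klra1. Klrc2, the gene of the activating partner NKG2C, differed from Klrc1 at 37 of the 60 bases, although its whole coding sequence was 81.0% identical.

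Exact sharing of longer stretches was limited to Klra7 and Klrc1 among the 5 genes. Of 1260 different 50-base stretches in the Klra7 transcripts, 12.3% also occurred in the transcripts of another gene, which was the pseudogene Klra13-ps in each case. At 100 bases the shared part was 1.83%. For Klrc1, 38.6% of 50-base stretches were shared, nearly all with Klrc2, and 14.6% at 100 bases. Klrd1, Klrk1 and Klrg1 shared 0 stretches of either length with another gene. The sources used here give neither the read length nor the treatment of reads with several matches, so the Klra7 and Klrc1 values are uncertain to the extent that reads could be split. None of the 5 genes shared exonic bases with another annotated gene.

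Total counts ran from 20587482 to 26387488 per sample. Levels are counts per 1000000 counts (CPM), with library totals adjusted by TMM, at which 3 counts, the upper limit given to a count of 0, correspond to 0.115 to 0.144 CPM. That limit covers counting error only. Kdm6a fell by 0.55 on the log2 scale (SE 0.04, edgeR adjusted p = 2.89e-05), with no overlap of genotypes. The cKO samples held 42.7 CPM ± 1.48 (SD, n = 4) of its RNA, and the WT samples 62.7 CPM ± 1.59 (SD, n = 5). The floxed exon is not stated. The 10 CD4 T cell markers summed to between 2773 and 3046 CPM in each sample, although 2 of them rose (Cd4 and Cd5) and 4 fell (Cd3d, Cd3g, Trbc1 and Trbc2), the latter by 0.19 to 0.42 on the log2 scale. Without cKO 2 the calls of Cd3d, Cd3g and Trbc2 were lost (edgeR adjusted p from 0.0641 to 0.0717). For the lectin-like receptors, 1 library stood apart. All 5 genes had their highest level in cKO 2, which was the highest of the 9 samples for 12.2% of the 14693 genes tested. The receptors' differences are therefore given with and without it.

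**Figure D1:**
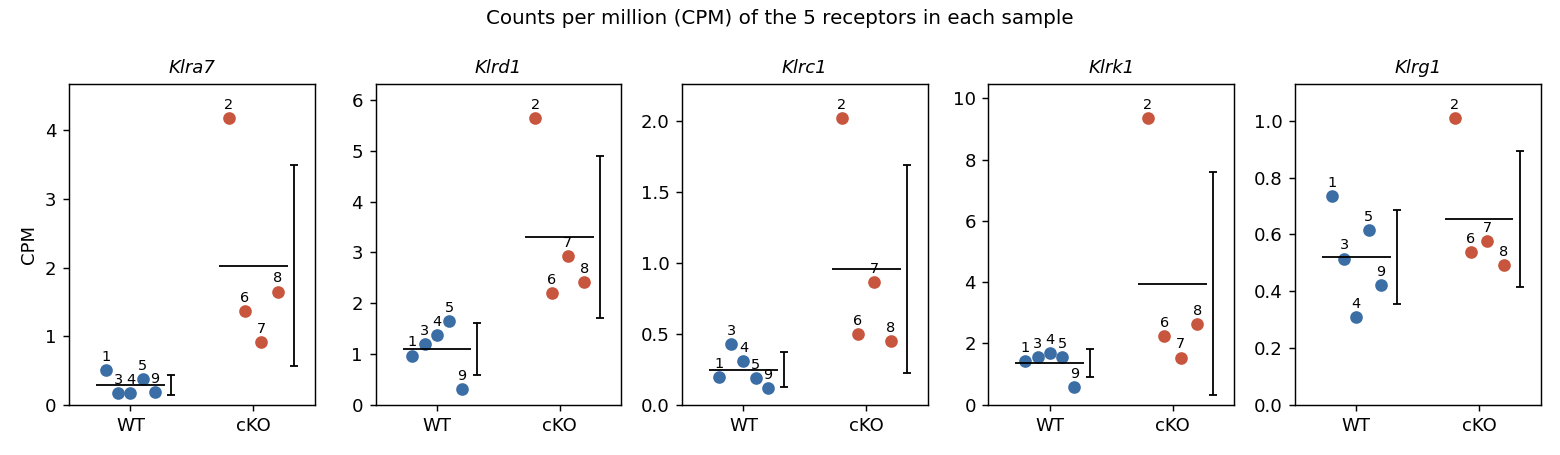
Level of each receptor gene in CPM (vertical axis, from 0) in the 5 WT and 4 cKO samples, with each point labelled by its sample number, a line at the mean and a bar of 1 SD. The cKO 2 sample is the highest point in each panel, and the Klra7, Klrd1 and Klrc1 panels show no overlap between genotypes.

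The inhibitory receptor gene Klra7 had the largest difference of the 5. The libraries of WT 1, 3, 4, 5 and 9 held 0.504, 0.172, 0.176, 0.378 and 0.191 CPM, from 13, 4, 4, 8 and 5 counts. Those of cKO 2, 6, 7 and 8 held 4.18, 1.37, 0.912 and 1.65 CPM, from 99, 33, 19 and 37 counts. Every cKO sample lay above every WT sample, cKO 2 by far the most. The WT mean was 0.284 CPM ± 0.150 (SD, n = 5), the cKO mean 2.03 CPM ± 1.46 (SD, n = 4), a log2 difference of 2.82 (SE 0.51) in the edgeR fit. Without cKO 2 the cKO mean was 1.31 CPM ± 0.374 (SD, n = 3) and the log2 difference 2.19 (SE 0.35). With the reads of all Ly49 genes summed, so that a read assigned to the wrong paralog stays in the sum, the log2 difference was 2.45 (SE 0.39). Klra7 (ENSMUSG00000067599) lies on chromosome 6 from 130218605 to 130233322 of mm10. In bulk RNA, more or fewer cells that carry a receptor and more or less of its RNA per cell cannot be told apart, which holds for every value here.

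Klrd1, the gene of the shared CD94 chain, was higher in cKO as well. It was at 0.969, 1.20, 1.37, 1.65 and 0.305 CPM in WT 1, 3, 4, 5 and 9. In cKO 2, 6, 7 and 8 it was at 5.65, 2.20, 2.93 and 2.42 CPM. The groups did not overlap, and 3 of the cKO samples lay close together above the WT range while WT 9 lay far below the other WT samples with 8 counts. The log2 difference was 1.61 (SE 0.38), with means of 1.10 CPM ± 0.509 (SD, n = 5) and 3.30 CPM ± 1.60 (SD, n = 4). Without cKO 2 the log2 difference was 1.21 (SE 0.34) and the cKO mean 2.51 CPM ± 0.377 (SD, n = 3).

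Klrc1, the NKG2A chain that pairs with CD94, had the lowest WT level per kilobase of the 5 and was higher in cKO. Samples WT 1, 3, 4, 5 and 9 held 0.194, 0.429, 0.309, 0.189 and 0.115 CPM, which is 3 to 10 counts each. Samples cKO 2, 6, 7 and 8 held 2.02, 0.497, 0.864 and 0.447 CPM, from 48, 12, 18 and 10 counts. The groups did not overlap, but cKO 8 lay only just above WT 3, by less than the counting error of 10 counts. The log2 difference was 1.96 (SE 0.53), with means of 0.247 CPM ± 0.123 (SD, n = 5) and 0.958 CPM ± 0.735 (SD, n = 4). Without cKO 2 it was 1.27 (SE 0.40), with a cKO mean of 0.603 CPM ± 0.228 (SD, n = 3). Summing the reads of Klrc1, Klrc2 and Klrc3 gave 1.95 (SE 0.54). The ratio of Klrd1 to Klrc1 per kilobase ran from 5.48 to 18.0 in WT and from 5.73 to 11.1 in cKO, so the ranges overlapped and the CD94 chain was the more abundant in every sample.

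The difference in Klrk1, the activating receptor NKG2D, was the one most altered by leaving out cKO 2. In WT 1, 3, 4, 5 and 9 it was at 1.43, 1.55, 1.68, 1.56 and 0.573 CPM. In cKO 2, 6, 7 and 8 it was at 9.36, 2.24, 1.54 and 2.64 CPM. The value of cKO 7 lay inside the WT range and that of cKO 2 was 4.38 times the mean of the other cKO samples. The log2 difference was 1.56 (SE 0.51), with means of 1.36 CPM ± 0.447 (SD, n = 5) and 3.94 CPM ± 3.64 (SD, n = 4). Without cKO 2 it was 0.67 (SE 0.29), with a cKO mean of 2.14 CPM ± 0.558 (SD, n = 3). The 3 genes lie close together on chromosome 6: Klrd1 (ENSMUSG00000030165) from 129591782 to 129598775, Klrk1 (ENSMUSG00000030149) from 129610323 to 129623864 and Klrc1 (ENSMUSG00000030167) from 129666015 to 129678973.

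Klrg1, the cadherin receptor, had the smallest difference of the 5. Klrg1 was at 0.736, 0.515, 0.309, 0.614 and 0.420 CPM in WT 1, 3, 4, 5 and 9. Its levels in cKO 2, 6, 7 and 8 were 1.01, 0.538, 0.576 and 0.492 CPM. Apart from cKO 2, the cKO samples lay within the WT range. The log2 difference was 0.34 (SE 0.30), with means of 0.519 CPM ± 0.166 (SD, n = 5) and 0.655 CPM ± 0.241 (SD, n = 4). Without cKO 2 it was 0.04 (SE 0.30), with a cKO mean of 0.536 CPM ± 0.0422 (SD, n = 3). Klrg1 (ENSMUSG00000030114) lies apart from the others on chromosome 6, from 122270596 to 122282882.

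All 5 genes passed the filter on low counts, which asks for 4 samples at its threshold. Klra7 reached the threshold in 1 of 5 WT samples, Klrc1 in 0 and Klrg1 in 3, so these passed only with their cKO samples counted. In the edgeR test over all genes, 3 of the 5 (Klra7, Klrd1 and Klrc1) were called higher in cKO at adjusted p under 0.05, beside 7.0% of all 14693 genes called higher, 8.82% called lower and 15.8% in either direction. Without cKO 2, 2 of the 5 (Klra7 and Klrd1) were called higher, beside 6.6% of genes called higher, 8.12% lower and 14.7% in either direction. Higher without overlap between groups were 3 of the 5, beside 7.08% of all genes (15.9% without overlap in either direction). Since the genes were chosen with this contrast known, nothing is read from these counts.

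Set per kilobase of protein-coding transcripts (RPKM, that is CPM divided by length), Klrd1 was the most abundant of the 5 receptor genes in WT, at 1.14 RPKM ± 0.527 (SD, n = 5). Klrk1 at 0.395 ± 0.130 and Klrg1 at 0.367 ± 0.117 followed, and did not differ beyond their spread. Klra7 at 0.225 ± 0.119 and Klrc1 at 0.1245 ± 0.0622 were lowest, again within each other's spread. In cKO the order of mean RPKM was Klrd1 (3.41 ± 1.66, SD, n = 4), Klra7 (1.60 ± 1.16), Klrk1 (1.15 ± 1.06), Klrc1 (0.483 ± 0.370) and Klrg1 (0.463 ± 0.170). On these lengths Klra7 lay below Klrk1 and Klrg1 in WT and above both in cKO, although the cKO spreads of Klra7 and Klrk1 overlapped. The WT order of Klra7 and Klrk1 depends on the length used. Per kilobase of all annotated exons, Klrk1 was at 0.189 RPKM ± 0.0622 (SD, n = 5) in WT, below Klra7 at 0.225 but within its spread. Without cKO 2 Klra7 was still next to Klrd1, at 1.04 RPKM ± 0.296 (SD, n = 3), and Klrg1 at 0.379 ± 0.0299 lay above Klrc1 at 0.304 ± 0.115.

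How the receptors varied among samples of 1 genotype differed from pair to pair. Pearson's r of log2 CPM after removal of each genotype's mean, over 9 libraries of similar depth and given as a description, was 0.82 between Klrd1 and Klrk1, 0.82 between Klra7 and Klrg1 and 0.73 between Klrd1 and Klrc1. Without cKO 2, over 8 samples, these were 0.81, 0.66 and 0.62. Klra7 and Klrk1 went from 0.76 to 0.39 when cKO 2 was left out, and Klra7 and Klrc1 from 0.35 to -0.52. Among 10667 tested genes averaging 5 CPM or more, those most like Klrd1 in this measure were Rdh14, Ralb and Tpd52 (r from 0.95 to 0.96). For Klrk1 they were Manf, Inpp5d and Ctsd (r from 0.96 to 0.97), and for Klra7 Gm20536, Poglut1 and Gpr132 (r from 0.95 to 0.97). Without cKO 2 the r of these 9 genes ran from 0.89 to 0.97. The 8 samples are part of those used to pick the genes, so this is no independent check. Over so few samples, values this high can arise from the search among 10667 genes alone.

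Other Ly49 genes were higher in cKO along with Klra7. All 12 listed relatives were in the table with at least 1 count, but only Klra1 passed the filter. It reached the threshold in 3 of 5 WT samples, so it passed only with its cKO samples counted. Klra1, the gene of the inhibitory receptor Ly49A, rose by 1.95 on the log2 scale (SE 0.44, edgeR adjusted p = 0.0134), with no overlap. It was at 0.349, 0.472, 0.485, 0.519 and 0.115 CPM in WT 1, 3, 4, 5 and 9 and at 2.83, 0.828, 1.06 and 1.21 CPM in cKO 2, 6, 7 and 8. Without cKO 2 its difference was 1.42 (edgeR adjusted p = 0.0201). As Klra1 was the only relative tested and was called higher, none could be called lower in edgeR, DESeq2 or limma-voom.

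With no filter on counts, 4 of 12 Ly49 relatives were called higher, beside 3.67% of the 25309 genes then tested (4.86% lower, 8.53% in either direction). Klra6 had 8 counts in all WT samples together and 66 in cKO, with 1.56, 0.497, 0.288 and 0.492 CPM in cKO 2, 6, 7 and 8 and at most 0.0882 CPM in WT (log2 3.32, SE 0.60, edgeR adjusted p = 0.00171 with no filter). Klra3 had 5 and 26 counts (adjusted p = 0.0386), and Klra13-ps, the pseudogene that shares stretches with Klra7, had 0 and 11 counts, at least 4.88-fold higher in cKO against the limit of 3 counts over the WT group. Klra9 had 2 and 13 counts, Klra5 7 and 12, Klra2 and Klra4 3 and 2 each, Klra17 1 and 0, and Klra8, Klra10 and Klra14-ps 0 and 1 each, and none of these 8 passed. Reads of these relatives are open to the same uncertainty of assignment as those of Klra7. Summed over the 12 relatives, WT samples ran from 0.305 to 0.803 CPM. The cKO samples 6, 7 and 8 ran from 1.87 to 2.20 CPM and cKO 2 was at 5.53 CPM.

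**Figure D2:**
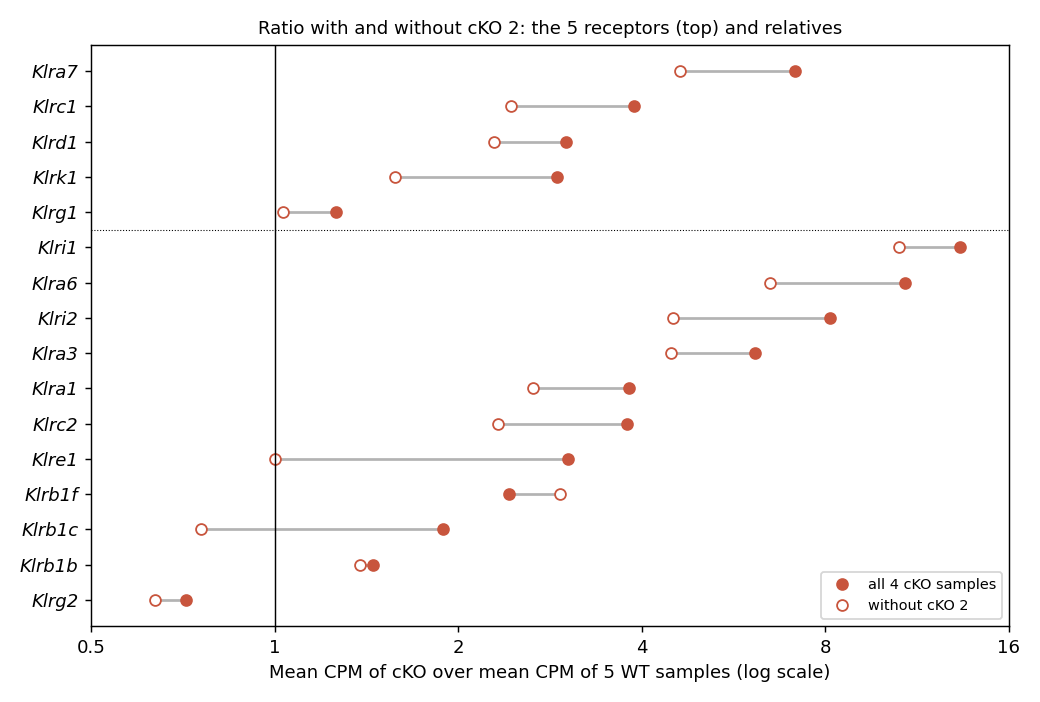
Ratio of mean CPM in cKO to mean CPM in WT (log axis) for the 5 receptors, above the dotted line, and for 11 relatives with at least 20 counts in all, with 4 cKO samples (filled) and without cKO 2 (open). Klrg1 and Klre1 lie near 1 without cKO 2, while Klra7, Klra6, Klra3, Klri1 and Klri2 lie above 4 with and without it. Some of the relatives reached 20 counts only through cKO.

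Of the other lectin-like genes, some were higher in each cKO sample and some in cKO 2 alone. Of 27 listed, 26 were in the table, 22 had counts and 4 passed the filter. Of those 4, Clec2d rose by 0.31 on the log2 scale (SE 0.07, edgeR adjusted p = 0.0101), with means of 40.2 and 49.7 CPM. Clec2d encodes a ligand of a receptor within the Klrb1 group, not of the group as a whole. Klrb1f, Cd69 and Clec2i did not pass, and 0 were called lower in edgeR (0 also at unadjusted p under 0.05). At adjusted p under 0.05, 0 were called lower in DESeq2 and in limma-voom. Klrb1f, a relative of the NK receptor gene Klrb1c, averaged 0.431 CPM in WT and 1.05 CPM in cKO (edgeR adjusted p = 0.0567, and 0.0101 without cKO 2). For this gene cKO 2 was the lowest cKO sample, with 0.380 CPM against 0.768 to 1.79 CPM in the other cKO samples. Klrb1f reached the filter's threshold in 3 WT and 3 cKO samples, so it passed only with both groups counted.

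Klri1 and Klri2, which encode partners of the Klre1 receptor and are named here after their values were seen, were higher in every cKO sample. Klri1 had 3 counts in WT and 31 in cKO (log2 3.49, SE 0.69, edgeR adjusted p = 0.00343 with no filter). Klri2 had 12 and 79 counts (log2 3.02, SE 0.60, adjusted p = 0.00353 with no filter), with 0.336 to 0.704 CPM in cKO 6, 7 and 8 and 1.98 CPM in cKO 2, against at most 0.189 CPM in WT. Klre1 itself was at 1.35 CPM in cKO 2 and at 0.0447 to 0.207 CPM in the other cKO samples, a range that overlapped that of WT, from 0 to 0.236 CPM. Klrc2 was at 0.675 CPM in cKO 2 and from 0.179 to 0.207 CPM in cKO 6, 7 and 8, and Klrc3 had 1 count in WT and 3 in cKO. With no filter, 5 of 22 genes of this list were called higher in edgeR: Clec2d, Klri1, Klri2, Klrb1f and Cd69.

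Of the lectin-like genes named so far, all but Klrg1 lie in the natural killer gene complex of chromosome 6, here the stretch from 128609227 to 131247362 of mm10. The table held 84 gene IDs there, of which 55 had counts and 19 were tested. Of the 15 tested that are not among the 5 receptors, 4 rose and 1 fell, beside 7.0% higher and 8.82% lower of all genes tested. Klra1, Clec2d, the autophagy gene Gabarapl1 (log2 0.41, SE 0.07, edgeR adjusted p = 0.00452) and the noncoding RNA 2310001H17Rik (log2 0.34, SE 0.07, adjusted p = 0.00772) rose, and the pseudogene BC064078 fell by 0.82 (SE 0.21, adjusted p = 0.0213, and 0.0679 without cKO 6). The last 3 are named after their values were seen. Of the lectin-like genes with at least 20 counts, the 10 from Klrd1 to Klra1 had ratios of mean CPM from 2.91 to 13.3, and from 1.58 to 10.6 without cKO 2. The 8 outside that stretch had ratios from 0.899 (Clec2i) to 3.03 (Klre1), and from 0.757 (Klrb1c) to 2.94 (Klrb1f) without cKO 2, so the ranges overlapped. Some of the 10 reached 20 counts only through cKO, such as Klri1 with 3 counts in WT and 31 in cKO, which favours high ratios. Genes from Klrd1 to Klra1 under 20 counts went both ways, with 3 and 2 counts for Klra4 and 2 and 13 for Klra9. Klre1, directly before Klrd1, lay near its WT level without cKO 2, so the choice of edges bears on these ranges. No conclusion about position is drawn from them.

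**Figure D3:**
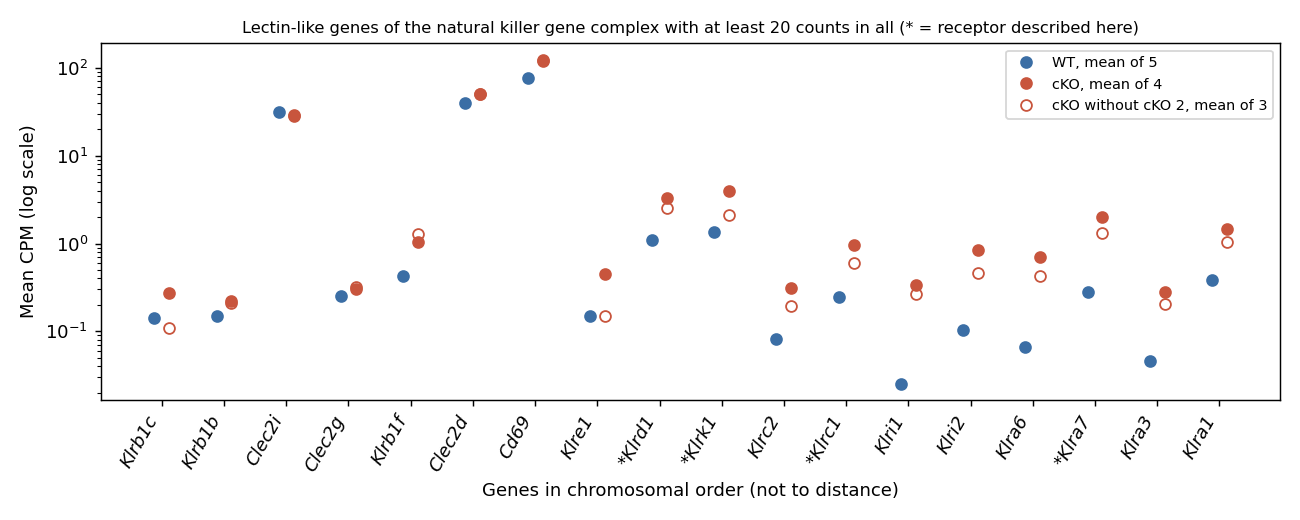
Mean CPM (log axis) of lectin-like genes of the natural killer gene complex with at least 20 counts over all samples, in chromosomal order, for 5 WT, 4 cKO and the 3 cKO samples other than cKO 2. From Klrd1 to Klra1 each gene shown lies higher in cKO than in WT, with and without cKO 2. Some of these reached 20 counts only through cKO, and genes of the stretch under 20 counts are not shown.

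Upstream sequences were available from RefSeq (GRCm38.p6) for 3 of the 5 genes, Klra7, Klrc1 and Klrk1, and were searched on both strands for the RUNX core TGTGGT and the T-box core AGGTGT, the letters bound by Runx3 and by T-bet and Eomes, which are known regulators of genes in cytotoxic lymphocytes. The 250 bases before the start of Klrk1 and of Klrc1 are shown because each held 1 RUNX core, in capitals, as TGTGGT in Klrk1 and as its reverse complement in Klrc1.
Klrk1: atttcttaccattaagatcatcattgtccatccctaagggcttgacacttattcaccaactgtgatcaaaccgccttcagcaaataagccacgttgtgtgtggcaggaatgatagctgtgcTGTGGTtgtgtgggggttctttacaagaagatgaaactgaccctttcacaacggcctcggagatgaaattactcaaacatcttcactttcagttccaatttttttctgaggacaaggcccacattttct
Klrc1: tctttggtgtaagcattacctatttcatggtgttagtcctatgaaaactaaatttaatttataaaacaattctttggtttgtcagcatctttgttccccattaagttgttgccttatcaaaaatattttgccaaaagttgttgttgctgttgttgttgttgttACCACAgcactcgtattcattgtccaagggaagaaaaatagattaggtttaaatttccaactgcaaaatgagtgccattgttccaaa
The Klrk1 window is chr6:129623865-129624114 and the Klrc1 window chr6:129678974-129679223, both on the minus strand. The RUNX core occurred in 14.0% of 32851 such windows and the T-box core in 11.8%. The T-box core was in 0 of the 4 windows of these genes, and the RUNX core in 0 of the 2 windows of Klra7. A match describes letters and is no evidence of binding.

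Among 19 transcription factors of cytotoxic lymphocytes, 3 were called higher and 5 lower, and 11 missed the threshold, beside 7.0% higher and 8.82% lower of all genes, with a median log2 difference of -0.02 beside 0.00125 for all genes. Irf2, an interferon regulatory factor, rose by 0.24 (SE 0.04, edgeR adjusted p = 0.00520), and Tox by 0.23 (SE 0.06, adjusted p = 0.0199). Bcl11b was the other gene that rose. Zbtb16, the PLZF factor of innate-like T cells, fell by 1.42 (SE 0.24, adjusted p = 0.00376), and Zfp683, the Hobit factor of tissue-resident lymphocytes, fell by 1.63 (SE 0.34, adjusted p = 0.0101). Stat4, Klf2 and Prdm1 were the other genes that fell, at -0.36, -0.78 and -0.81. Without cKO 6, 7 or 8 in turn, none of Tox, Bcl11b, Stat4, Klf2 and Prdm1 passed the test (edgeR adjusted p from 0.0503 to 0.131 over all settings in which 1 of them was lost).

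The T-box factors T-bet and Eomes drive the cytotoxic programme of NK and CD8 T cells, and neither gene passed the test. Eomes was at 11.3, 9.32, 9.35, 18.2 and 6.45 CPM in WT 1, 3, 4, 5 and 9 and at 39.0, 17.8, 14.5 and 10.3 CPM in cKO 2, 6, 7 and 8 (log2 0.91, SE 0.37, edgeR adjusted p = 0.115). Without cKO 2 the difference in Eomes was 0.39 (edgeR adjusted p = 0.384). As with Klrk1, cKO 2 was highest and WT 9 lowest. Tbx21, the T-bet gene, named after its values were seen, averaged 35.2 CPM ± 22.2 (SD, n = 5) in WT, against a cKO mean of 71.9 CPM ± 28.2 (SD, n = 4) (edgeR adjusted p = 0.135). Runx3 was at 222 and 234 CPM (log2 0.08, edgeR adjusted p = 0.723), a difference whose sign changed without cKO 2.

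Adaptors and signalling genes of these receptors changed in both directions. Among 19 tested, 3 were called higher, 5 lower and 11 neither, beside the same 7.0% and 8.82% of all genes, with a median log2 difference of -0.05. Hcst, the DAP10 adaptor of NKG2D, averaged 4.76 CPM ± 0.759 (SD, n = 5) in WT, against a cKO mean of 3.88 CPM ± 0.194 (SD, n = 4) (log2 -0.29, SE 0.12, edgeR adjusted p = 0.134). The ratio of Klrk1 to Hcst per kilobase ran from 0.0160 to 0.0472 in WT. It was 0.292, 0.0764, 0.0535 and 0.0863 in cKO 2, 6, 7 and 8, all above the WT range. The gap between cKO 7 and WT 1 lay within counting error, with 32 and 37 counts of Klrk1. Klrk1 itself in cKO 7 lay inside the WT range, and the fall in Hcst was not called. How often such ratios separate the genotypes over all genes was not examined. Tyrobp, the DAP12 adaptor, was at or below 0.192 CPM in 8 samples and at 0.506 CPM in cKO 2, with 12 counts.

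Among the kinases and phosphatases of the pathway, Syk, a tyrosine kinase, had the largest change of those called and fell by 1.62 (SE 0.31, edgeR adjusted p = 0.00654), with means of 14.2 and 4.67 CPM. Plcg2, a phospholipase, rose by 0.68 (SE 0.11, adjusted p = 0.00242). Inpp5d, the SHIP1 phosphatase that inhibitory lectin-like receptors can recruit, fell by 0.27 (SE 0.05, adjusted p = 0.00579), while Ptpn6, the SHP-1 phosphatase, rose by 0.26 (SE 0.08, adjusted p = 0.0462). Lck, Vav1 and Grb2 fell by 0.20, 0.18 and 0.13, and Vav3, an exchange factor, rose by 0.27. The calls of Vav3 and Ptpn6 were lost without WT 3, WT 4, WT 9 or cKO 6 (edgeR adjusted p from 0.0553 to 0.140 over all settings in which 1 of them was lost).

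Ligands of the receptors were measured in the same cells. From a list of 16, 12 were in the table and 7 were tested, of which Ulbp1 rose and Cdh1 fell (median log2 difference 0.05). Cdh1, E-cadherin and a ligand of KLRG1, was 74.6% lower in cKO (log2 -1.98, SE 0.33, edgeR adjusted p = 0.00320). It was at 0.891, 0.859, 1.54, 0.897 and 1.72 CPM in WT 1, 3, 4, 5 and 9 and at 0.253, 0.248, 0.432 and 0.268 CPM in cKO 2, 6, 7 and 8. Every cKO sample lay below every WT sample, and the value without cKO 2 was -1.91 (adjusted p = 0.00838). Ulbp1, a ligand of NKG2D, rose by 0.36 on the log2 scale (SE 0.06, edgeR adjusted p = 0.00493), to a cKO mean of 25.3 CPM ± 2.42 (SD, n = 4) from 19.7 CPM ± 0.632 (SD, n = 5). H2-T23, the Qa-1 ligand of CD94 and NKG2A, averaged 137 CPM ± 21.8 (SD, n = 5) in WT, and its cKO mean was 149 CPM ± 24.9 (SD, n = 4), a log2 difference of 0.12 (SE 0.12, adjusted p = 0.539), with -0.00585 without cKO 2.

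The summed markers of other lymphocytes that carry these receptors were highest in cKO 2 as well, though not every marker was. Of 14 NK markers with at least 20 counts, 8 were highest there. The 16 NK cell markers in the table, the 5 receptors left out, summed to between 14.8 and 30.6 CPM in WT, 23.9 and 32.1 CPM in cKO 6, 7 and 8, and 63.5 CPM in cKO 2. Without Eomes, which activated T cells also express, the sums were 8.36 to 13.3, 13.4 to 14.4 and 24.5 CPM. The most abundant were Eomes and Cd160, the latter averaging 4.24 CPM in WT and 5.77 CPM in cKO (edgeR adjusted p = 0.104). Nkg7, a granule protein gene named after its values were seen, was at 7.51 CPM in cKO 2, from 2.68 to 3.60 CPM in the other cKO samples and from 1.11 to 2.69 CPM in WT (edgeR adjusted p = 0.0599, and 0.156 without cKO 2). Of the 16, 6 passed the filter and 0 were called in edgeR (at unadjusted p under 0.05, 3 higher and 1 lower). The lower 1 was Itga2, an integrin gene (log2 -0.72, SE 0.29, edgeR adjusted p = 0.112). At adjusted p under 0.05, 1 of the 6 was called higher in DESeq2 and 0 in limma-voom. With no filter, 2 of the 16 were called higher and 0 lower in edgeR, Nkg7 (adjusted p = 0.0336) and the chemokine gene Xcl1 (34 and 66 counts, adjusted p = 0.0180). The defining markers Ncr1 (NKp46) and Klra8 held at most 3 counts in any sample, with 4 counts of Ncr1 in WT and 5 in cKO, and 0 and 1 of Klra8. Other rare markers went both ways without being called. Styk1 had 5 counts in WT and 17 in cKO, Tyrobp 9 and 19, Gzma, a granzyme gene, 41 and 11, and Fcer1g, an adaptor of NK cells, 42 and 20. Klrb1c, part of whose exons overlap another annotated gene, had 17 and 25 counts, 18 of them in cKO 2.

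Gamma-delta T cell markers, led by Tcrg-C2 and Tcrg-C4, summed to between 4.28 and 5.84 CPM in WT. In cKO 6, 7 and 8 the sum was between 5.14 and 6.98 CPM, and in cKO 2 it was 10.7 CPM. Sox13, also on that list and named after its values were seen, was instead lowest in cKO 2. Its level there was 0.422 CPM, against 0.617 to 1.08 CPM in the other samples. The CD8 markers Cd8b1 and Cd8a summed to between 11.9 and 15.1 CPM in WT, 15.1 and 17.5 CPM in cKO 6, 7 and 8 and 19.1 CPM in cKO 2. Cd8b1 rose (log2 0.28, SE 0.08, edgeR adjusted p = 0.0296), a call that was lost without cKO 2 (adjusted p = 0.0737). The part of these cells in the receptor values was not tested. The log2 ratio of the summed NK markers between genotypes was 0.69, and 0.29 without cKO 2. Eomes, which activated T cells also express, averaged 14.2 CPM of that sum in cKO 6, 7 and 8, so the sum does not measure NK cells alone. The receptors' log2 differences without cKO 2 were 2.19 for Klra7, 1.27 for Klrc1, 1.21 for Klrd1, 0.67 for Klrk1 and 0.04 for Klrg1. Set beside the sum, they do not show what part other cells had. B cell markers, led by Cd79b and Cd79a, summed to 3.31 to 5.29 CPM in WT and 2.73 to 4.43 CPM in cKO. Macrophage and dendritic cell markers, led by Csf1r and Cd68, summed to 15.1 to 20.1 and 18.0 to 21.8 CPM.

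**Figure D4:**
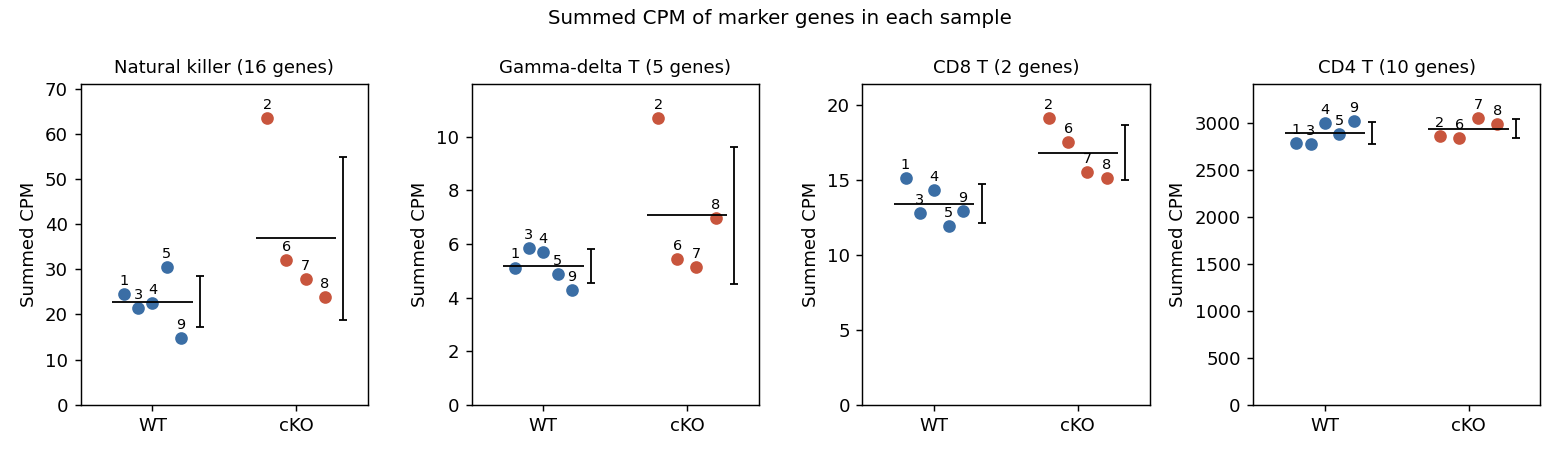
Summed CPM (vertical axis, from 0) of marker genes of 4 lymphocyte types in each sample, labelled by sample number, with a line at the mean and a bar of 1 SD. The NK and gamma-delta sums of cKO 2, at 63.5 and 10.7 CPM, lie above all other samples, and the CD4 sums lie between 2773 and 3046 CPM.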

How the data were processed

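RNA-seq counts of 9 samples (5 WT, 4 cKO) were used. The authors deposited 1 table of raw, unnormalized counts for each gene, from stranded libraries made after mRNA enrichment, per the labels. The submitters' processing notes name bcl2fastq 2.17 and mm10. Aligner, counter, strand setting and annotation: not given in the sources used here. Columns were matched to samples by title. Symbols were found for 37607 of 39017 IDs, and positions and lengths came from GENCODE M21.

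The test was edgeR 4.0.16 (R 4.3.3), quasi-likelihood, on all 9 samples with TMM, genes kept by filterByExpr (at least 10 counts at the median depth, which is 0.43 CPM, in 4 samples), two-sided, Benjamini-Hochberg adjusted p under 0.05 over 14693 genes. A prior count of 2 entered log2 CPM. The members and lists were chosen with earlier results of these data known. The text names the 5 members, the Klra and Klrc relatives, up to 6 called genes per list by smallest p, known partners, the 3 genes most like each member averaging 1 CPM or more, and the 2 most abundant markers per list. Klri1, Klri2, Klre1, Klrb1c, Klrb1f, Clec2i, Fcer1g, Xcl1, Styk1, Gzma, Itga2, Sox13, Cd3d, Cd3g, Cd5, Trbc1, Trbc2, Ikzf2, Foxp3, Vav3, Ptpn6, Bcl11b, Prdm1, Tbx21, Nkg7, Runx3, Cd69, Gabarapl1, 2310001H17Rik and BC064078 fall outside that rule and were named after their values were seen. The listed Klrh1, Raet1a, Raet1b, Raet1c, H60a, Sh2d1b1, Trdc and the second name Cd244 had no matching ID. Alternatives were other scalings and filters, 1 surrogate variable (sva 3.50.0), DESeq2 1.42.0, limma-voom 3.58.1, robust dispersion, summed paralog reads and leaving out each sample. Scripts were tested on simulated data.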

Additional observations from a re-analysis of the deposited data

Results flagged for a closer look

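Of 106 sets of values examined, each a quantity in 1 genotype, 12 held a sample far from the others of its group. Chance gives about 1 in 20 for independent, normally spread values. These sets include low counts and related genes, so no excess is read from their number. In 6 of the 12 that sample was cKO 2. Klrk1 was at 9.36 CPM in cKO 2 against 1.54 to 2.64 CPM in the other cKO samples, and at 0.573 CPM in WT 9 against 1.43 to 1.68 CPM. Klrg1 was at 1.01 CPM in cKO 2 against 0.492 to 0.576 CPM. Klra6 was at 1.56 CPM in cKO 2 against 0.288 to 0.497 CPM, and had 0 CPM in WT 5, which at its depth allows up to 0.142 CPM, against 0.0764 to 0.0882 CPM in the other WT samples. Klrc2 was at 0.675 CPM in cKO 2 against 0.179 to 0.207 CPM. Klre1 was at 1.35 CPM in cKO 2 against 0.0447 to 0.207 CPM. H2-T23 was at 186 CPM in cKO 2 against 134 to 139 CPM. The remaining ones were Cdh1 at 0.432 CPM in cKO 7 against 0.248 to 0.268 CPM, Inpp5d at 132 CPM in WT 9 against 139 to 141 CPM, Gabarapl1 at 27.1 CPM in WT 1 against 21.1 to 22.5 CPM, and Cd69 at 161 CPM in cKO 6 against 104 to 107 CPM.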

How the results depend on the processing

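No paired analysis was run because the labels give no pairing of WT with cKO samples. With 1 sample left out, the log2 difference ran from 2.19 to 3.15 for Klra7, from 1.21 to 1.80 for Klrd1, from 1.27 to 2.25 for Klrc1, from 0.67 to 1.82 for Klrk1 and from 0.04 to 0.51 for Klrg1, with the lowest value without cKO 2 for each. Other settings gave 2.32 to 2.84, 1.40 to 1.70, 1.72 to 1.98, 1.10 to 1.58 and 0.0796 to 0.355. Genes called higher ran from 531 (without cKO 6) to 1363 (without WT 1), with 651, 662 and 632 without WT 4, WT 9 and cKO 8, and genes called lower from 732 (without cKO 6) to 1570. With upper-quartile scaling 54.2% of calls were higher, against 44.2%. Ly49 relatives called higher numbered 4 with no filter, 0 at 1 CPM in 4 samples (fewer genes tested) and 1 to 2 with a sample left out (2 without cKO 7). Other lectin-like genes called higher numbered 5 with no filter, 2 with DESeq2 and 1 to 3 with a sample left out (3 without WT 1, 2 without cKO 2). The ligand called lower, Cdh1, was not tested at 1 CPM in 4 samples, which left 0. Adaptors called higher numbered 1 with 1 surrogate variable and 1 to 4 with a sample left out (1 without WT 3, 4 or 9 or cKO 6). Transcription factors called higher ran from 1 (without cKO 6, 7 or 8) to 6 (without WT 1), and those called lower from 2 (without WT 4 or 5 or cKO 6, 7 or 8) to 6, with 3 without WT 3 and 2 with robust quasi-likelihood. H2-T23 ran from -0.00585 (without cKO 2) to 0.217 (without WT 5), and Runx3 from -0.0755 (without cKO 2) to 0.168 (without cKO 7), with -0.0531 under 1 surrogate variable. The cause of these shifts was not tested. Calls of Tox, Stat4, Klf2, Prdm1, Bcl11b, Vav3, Ptpn6 and Cd8b1 were lost in 3, 7, 9, 7, 8, 7, 7 and 7 of 17 settings. The marker sums and correlations without single samples were added after seeing the data. Depth limits Klrc1, at 3 to 10 counts in each WT sample, and the Ly49 relatives that failed the filter.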

Other observations

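The rank of cKO 2 among all genes places the receptors among those that differ most in that library. Measured as log2 CPM minus the mean of the other cKO samples, Klrk1 deviated by 2.12, and 5 of 14693 tested genes deviated more in that direction. Klrc1 (1.66), Klra7 (1.65), Klrd1 (1.15) and Klrg1 (0.82) were exceeded by 19, 21, 84 and 206 genes. Low counts widen such deviations, and the receptors were not ranked against genes of similar level alone. In WT 9 the order was another: Klrd1 lay 1.80 below the other WT samples, with 6 genes lower, Klrk1 1.31 below, with 45 genes lower, and Klrg1 0.27 below, with 1472 genes lower. Eomes was highest in cKO 2 and lowest in WT 9 too, at 39.0 and 6.45 CPM. Of 14 NK marker genes with at least 20 counts, 8 were highest in cKO 2, as were 4 of 5 gamma-delta markers, 0 of 10 CD4 markers and 0 of 6 regulatory T cell markers. Regulatory T cell markers, led by Il2ra, which activated T cells also express, summed to 3843 to 4394 CPM in WT and 3210 to 3896 CPM in cKO. Its 6 genes did not move together: Il2ra fell by 0.31 (edgeR adjusted p = 0.0190), Ikzf2 rose by 0.46 (edgeR adjusted p = 0.000651) and the other 4 were not called, with Foxp3 at -0.02.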
